A study of Danio rerio with 5 samples.

Results

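Transcript levels of whole zebrafish embryos at 72 h after fertilization were compared between Bdh2 morphants and control morphants, 2 arrays of each, which are 4 of the 5 arrays of the study. The Bdh2 morphants were wild-type embryos injected with a morpholino against Bdh2, and the control morphants were wild-type embryos injected with a control morpholino. In both groups the labels give 1 to 2 nL of morpholino at 130 µmol/L, injected at the 1- to 2-cell stage. The 5th array, of Bdh2 morphants that also received mouse Bdh2 mRNA, was left out. Arrays were chosen by their labels, and each Bdh2 morphant array was set against the control array of the same replicate number, so that every gene has a difference within number 1 and a difference within number 2. No label gives the kind of morpholino (splice-blocking or translation-blocking), the sequence behind the control, the number of embryos in a sample or the clutch of a replicate. A p-value here therefore measures only the spread between these samples.

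Bdh2 is a short-chain dehydrogenase that has been linked to ketone body use and to the making of an iron-binding siderophore in mammals, and its depletion in zebrafish embryos has been reported to disturb heme synthesis in red blood cells. A morpholino is an antisense oligomer that lowers the protein product of a gene for the first days of development. At 72 h the zebrafish retina is finishing the birth of its last cell types, photoreceptors and bipolar cells, while trunk muscle already contracts, primitive red cells circulate and the cartilages of the head are being laid down.

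The values are linear intensities, 1 per probe set and array, and differences are given as log2 differences of intensity + 16, Bdh2 morphant minus control morphant, so that -1 is about a halving. The number of arrays limits the precision. Median intensity was 157 and 142 in Bdh2 morphant replicates 1 and 2, and 161 and 162 in control replicates 1 and 2. Wherever 2 intensities are given for a group they are those of replicate 1 and replicate 2. Of 53 marker names of embryonic tissues on the array, 43 had a gene measured above the filter on low values, among them markers of eye, neurons, muscle, red cells and cartilage. A gene listed under an older and a current name counts under each. Since these are whole embryos, fewer cells of a type and less RNA per cell cannot be told apart in any result below.

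The transcript of bdh2 itself was not shifted one way. Its probe set read 235 and 643 in Bdh2 morphants, against 344 and 335 in control morphants. The 2 morphant arrays lay on opposite sides of both controls, with log2 differences of -0.52 within number 1 and 0.91 within number 2 (mean 0.19, SE 0.49). A morpholino that blocks translation can leave the transcript in place, so this probe set does not check the labels.

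Bdh2 morphants differed from control morphants in both numbers mostly downwards when the difference was large. Of 9301 tested probe sets, 72 were at least 2-fold lower in both numbers, which is 0.774% of those tested, and 5 were at least 2-fold higher in both, which is 0.0538%. Within number 1 alone, 197 were at least 2-fold lower and 133 at least 2-fold higher. Within number 2 alone, 490 were lower and 141 higher by that limit, so the lean was stronger there. The 72 probe sets included 53 with a gene symbol, for 51 genes. Among these genes, 11 belonged to the lists of retina, lens and nervous system genes, which hold 2.08% of the 6336 genes tested. The lists were chosen with earlier results of these data known, so these shares are a description and were not tested. The other lists with more than 1 of these genes were heat shock and chaperones with 2 and the muscle Z-disc and energy list with 2, and 28 of the genes were in no list. The median intensity of the 72 probe sets was 186 in Bdh2 morphants and 577 in control morphants, while over all tested probe sets it was 404 in Bdh2 morphants and 419 in control morphants. In 31 of the 72, at least 1 Bdh2 morphant array read below the filter intensity of 94.5, where the size of a log2 difference leans on the constant added before the logarithm. The probe sets next to the 2-fold limit had consistent differences of 1.00 in size inside it and 0.999 outside it on the lower side, and of 1.02 inside and 0.95 outside on the higher side.

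Counted at any size, differences leaned less to 1 side than the large ones did, and the side depended on the scaling. In all, 2621 probe sets (28.2%) were lower in both numbers and 2203 (23.7%) were higher in both, and the other 4477 (48.1%) had opposite signs. The lower ones were 54.3% of those with 1 sign, but 40.9% when each array was centred on its own median, a step that shifts the differences within number 2 by 0.14 and those within number 1 by 0.01. Across probe sets, which are not independent, the differences of the 2 numbers correlated at r = 0.158. Both Bdh2 morphant arrays lay below both control arrays for 1310 probe sets (14.1%) and above both for 966 (10.4%). With limma, 0 probe sets (0%) had an adjusted p under 0.05, and the smallest adjusted p was 0.633. At an unadjusted p under 0.05 there were 191, of which 177 (1.9%) were lower and 14 (0.151%) higher in Bdh2 morphants. If no probe set differed, 465 of the 9301 would be expected under that limit by chance, which is more than were found. Without control replicate 2, 5 probe sets had an adjusted p under 0.05, and they included crx (adjusted p = 0.00178), vsx1 (0.0167) and si:ch211-255g12.6 (0.0376), the lone control array being assumed to vary like the morphant arrays. With all 4 arrays, limma's adjusted p was 0.633 for crx, vsx1 and si:ch211-255g12.6 and 1.00 for each other gene named below, so the differences that follow are described and not called. The main limma fit and the standard errors in this text leave the replicate number out, so they also hold the spread between numbers. With the replicate number as a limma term, which the labels do not call for, crx alone had an adjusted p under 0.05 (0.0237). At an unadjusted p under 0.05 the fit with that term had 624 probe sets, 491 lower and 133 higher, beside the same 465 expected.

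**Figure D1:**
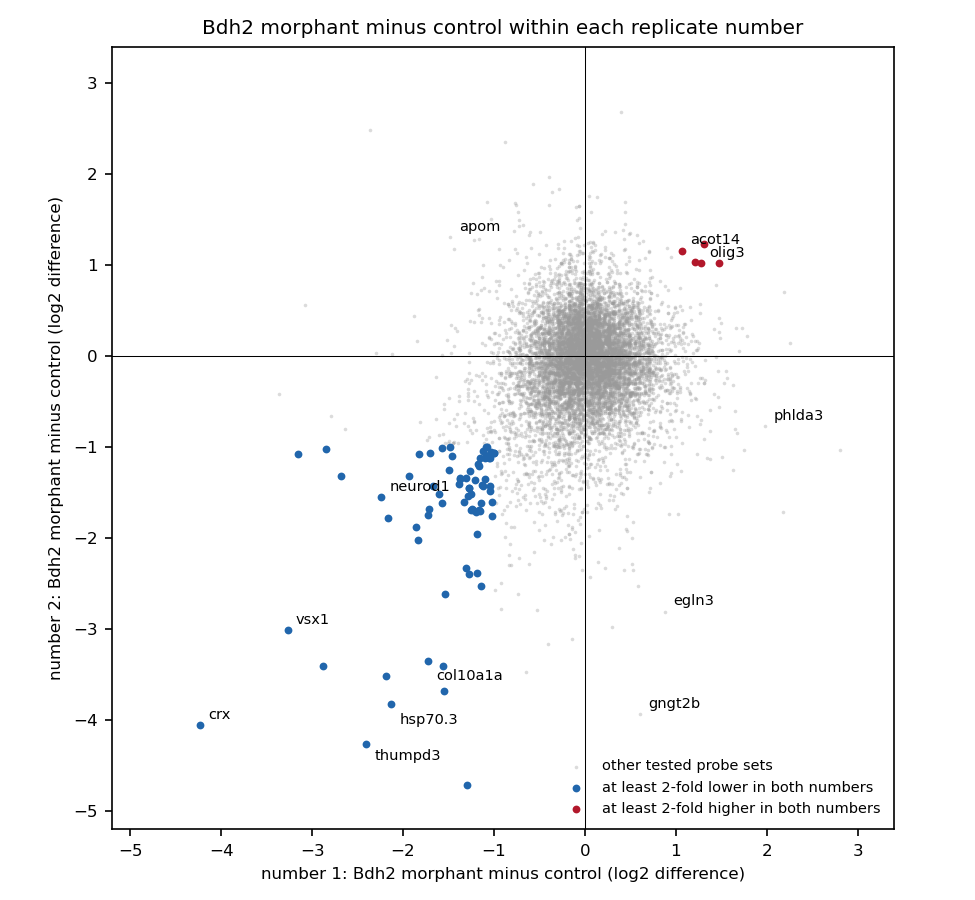
Log2 difference of each tested probe set, Bdh2 morphant minus control, within number 1 (horizontal axis) and within number 2 (vertical axis), with the probe sets at least 2-fold lower (72, blue) or higher (5, red) in both numbers coloured. The blue points reach beyond -4 on both axes at crx, while the red points all lie between 1 and 2.

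The largest differences that both numbers share, taking the smaller of the 2 in each gene, were those of crx and vsx1, which act in the developing retina. The gene crx, a homeobox factor that photoreceptors and bipolar cells need, read 42.6 and 14.1 in Bdh2 morphants, against 1081 and 487 in control morphants. Both morphant arrays were far below both controls, by -4.23 within number 1 and -4.06 within number 2 (mean -4.14, SE 0.52). The gene vsx1, a homeobox factor of bipolar cells, read 110 and 65.7 in Bdh2 morphants, against 1197 and 644 in control morphants (mean -3.14, SE 0.43). Its groups did not overlap either, where 14.1% of all tested probe sets had both morphant arrays below both controls. Its 2 differences, -3.27 and -3.01, were close to each other in size. Each of the 2 genes had 1 tested probe set, so no second probe set repeats the measurement. The crx readings of both morphant arrays and the lower vsx1 reading were under the filter intensity of 94.5.

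The list of retinal interneuron and optic cup genes had 22 tested members, of which 14 were lower in both numbers and 1 was higher in both, where 26.2% of all tested genes were lower in both and 26.2% higher in both. Its median difference was -0.50, with -0.59 within number 1 and -0.50 within number 2, beside 0.02 over all genes. It ran from -0.78 without control replicate 2 to -0.16 without control replicate 1. Another 7 members had opposite signs, among them pax6b (0.27 and -0.86) and tbx2b (0.17 and -0.79). The brightest member, tfap2a, had -0.59 and -0.07. Besides vsx1 the lowest members were mostly transcription factors of amacrine and ganglion cells. The LIM-homeobox gene lhx9 read 164 and 54.8 in Bdh2 morphants, against 421 and 177 in control morphants. For barhl2, a homeobox factor of amacrine and ganglion cells, the intensities were 192 and 107 in Bdh2 morphants and 603 and 230 in control morphants. In both genes replicate 2 was the lower one of each group, and the replicate 1 morphant array lay only a little below the replicate 2 control array.

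A similar picture held for tfap2b, a factor of amacrine cells, at 359 and 296 in Bdh2 morphants against 998 and 486 in control morphants, where the groups did not overlap. Of all tested probe sets, 14.1% had both morphant arrays below both controls. For atoh7, the basic helix-loop-helix factor that starts the ganglion cell fate, the difference was -1.38 within number 1 and -0.49 within number 2. For mab21l2, a gene of optic cup growth, it was -0.92 and -0.74, and for isl1a, a homeobox gene of ganglion and bipolar cells, -0.57 and -1.16.

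Photoreceptor and visual cycle genes were less well covered, with 9 of 28 genes on the array above the filter. Of these 9, 5 were lower and 1 higher in both numbers, with a median of -0.24 within number 1 and -1.86 within number 2. Over all tested genes each of these shares was 26.2%. The retinaldehyde-binding protein gene rlbp1a read 67.2 and 28.5 in Bdh2 morphants, against 173 and 216 in control morphants, lower in both numbers. The gene rpe65a, which codes for the isomerase that regenerates the chromophore, was set apart mainly in replicate 2, at 180 and 99.9 in Bdh2 morphants against 219 and 454 in control morphants. The cone transducin subunit gene gngt2b went opposite ways, with 119 and 14.1 in Bdh2 morphants and 72.2 and 446 in control morphants.

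Lens genes were lower above all in number 1. Of 5 tested lens genes, 4 were lower in both numbers, with a median of -1.29 within number 1 and -0.41 within number 2. Over all tested genes 26.2% were lower in both. The gamma-crystallin gene crygm2c read 147 and 90.8 in Bdh2 morphants, against 481 and 291 in control morphants, and its 2 differences were alike, -1.61 and -1.52. The brighter crystallins were not alike in the 2 numbers. The beta-crystallin gene cryba4 read 5589 and 4900 in Bdh2 morphants, against 11792 and 5118 in control morphants, so that the control replicate 1 array alone stood out. For crybb1 the differences were -1.11 within number 1 and 0.75 within number 2, and for crygmxl2 they were -1.29 and -0.41. The beaded filament gene bfsp2, whose protein forms the cytoskeleton of lens fibres, had -1.61 and -0.87.

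In the brain, regional patterning factors were lower more often than higher. Among 27 tested regional factors of forebrain, midbrain and hindbrain, 16 were lower and 2 higher in both numbers, with a median of -0.24. Over all tested genes each of these shares was 26.2%. For otx2b, a homeobox factor of the anterior head and of the retina, the intensities were 891 and 397 in Bdh2 morphants and 1894 and 717 in control morphants, so that the groups overlapped while each number had a lower morphant array. The LIM-homeobox gene lhx5 had differences of -1.11 and -0.96. For lhx1a they were -1.05 and -1.09, and its other tested probe set was lower in both numbers too.

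Proneural factors split evenly: of 20 tested members, 8 were lower in both numbers and 8 higher in both, with a median of 0.02. Over all tested genes the split was even too, at 26.2% each way. The lower ones included neurod1, a basic helix-loop-helix factor of differentiating neurons, photoreceptors and islet cells, with 286 and 188 in Bdh2 morphants against 1409 and 583 in control morphants. The related neurod6b, a factor of maturing neurons, read 181 and 137 in Bdh2 morphants and 492 and 375 in control morphants. Both genes had non-overlapping groups, where 14.1% of all tested probe sets had both morphant arrays below both controls. The gene neurod6b differed by nearly the same amount in both numbers, -1.37 and -1.35.

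Among the higher members was olig3, a basic helix-loop-helix factor of dorsal neural tube progenitors, which read 1104 and 754 in Bdh2 morphants, against 446 and 363 in control morphants, without overlap (1.28 and 1.02, SE of the mean 0.35). For atoh1a, the factor of the cerebellar rhombic lip and of hair cells, the intensities were 125 and 232 in Bdh2 morphants and 36.0 and 128 in control morphants. There, the replicate 1 morphant array was slightly below the replicate 2 control array, although each difference was positive, at 1.44 and 0.78. Outside the proneural list, the zinc finger gene egr2a, a paralog of the hindbrain segment gene egr2b, had 1.04 and 0.75, without overlap. Both olig3 and egr2a were picked for large differences, and 10.4% of all tested probe sets had both morphant arrays above both controls. For her3, a Hairy-related repressor that keeps progenitors undifferentiated, 1 probe set was higher (1.47 and 1.03) and the other was not (-0.24 and -0.30).

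**Figure D2:**
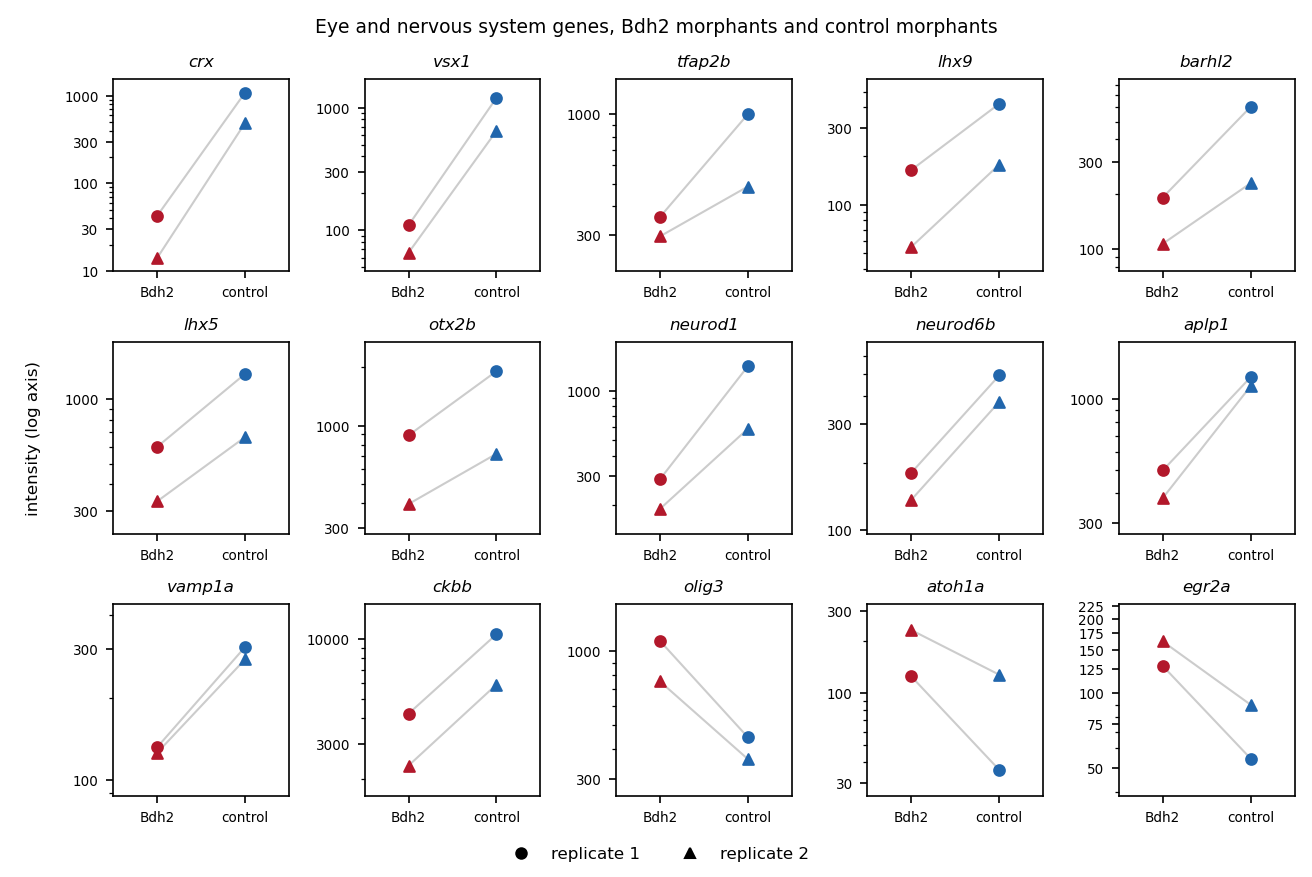
Intensity (log axis) of 15 eye and nervous system genes in Bdh2 morphants (red, left) and control morphants (blue, right), with a line joining the arrays of the same replicate number (circle 1, triangle 2). Both lines run the same way in every panel, with crx at 42.6 and 14.1 in Bdh2 morphants against 1081 and 487 in control morphants, and in the last 3 panels, olig3, atoh1a and egr2a, the morphant end is the higher one.

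Genes of differentiated neurons were the most one-sided of the nervous system lists in this comparison. Of 31 tested members, 29 were lower in both numbers, none was higher in both, and the other 2 had opposite signs. Over all tested genes 26.2% were lower and 26.2% higher in both. The median of the neuron list was -0.89, at -0.35 within number 1 and -1.25 within number 2. The gene aplp1, a relative of the amyloid precursor protein gene, read 499 and 381 in Bdh2 morphants, against 1242 and 1138 in control morphants. The gene slc32a1, the vesicular transporter of GABA and glycine, read 223 and 136 in Bdh2 morphants and 420 and 376 in control morphants, and gad1b, which makes GABA, read 188 and 116 in Bdh2 morphants and 355 and 233 in control morphants. In all 3 genes, which were picked for large differences, both morphant arrays were below both controls. That held for 14.1% of all tested probe sets.

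Cytoskeletal and signalling genes of neurons behaved likewise. The tubulin gene tuba2 had differences of -0.75 and -1.5, and gng3, a G protein subunit gene of neurons, had -0.74 and -0.81. The stathmin gene stmn1b, which regulates microtubules in growing neurons and stands in the cell cycle list, had -1.26 in each number, and its other tested probe set was lower too. Of the synapse genes, vamp1a, of synaptic vesicle fusion, read 132 and 126 in Bdh2 morphants, against 306 and 276 in control morphants. The microtubule gene map1aa was a counterexample, with 286 and 58.0 in Bdh2 morphants and 208 and 361 in control morphants. So was elavl3 of the neuron list, with 0.26 and -0.58 in its brightest probe set and opposite signs in its other tested ones. The brightest gene of that list, rtn1a, differed little, with -0.31 and -0.14, and its other tested probe set had -0.15 and 0.02. The brain-type creatine kinase gene ckbb, one of the brightest of these genes, read 4225 and 2328 in Bdh2 morphants, against 10505 and 5898 in control morphants, at -1.31 and -1.34.

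Glial and progenitor genes were mixed, with 10 lower and 4 higher of 25 in both numbers, beside 26.2% each way over all tested genes. The gene gfap, of radial glia, read 344 and 413 in Bdh2 morphants and 638 and 680 in control morphants. For slc1a2b, a glutamate transporter of glia, the differences were -0.61 and -2.29, and for the receptor gene notch1a they were -0.86 and -1.65. In contrast, glula, which makes glutamine in glia, had 0.37 and 0.50. The brightest gene of the list, fabp7a, a fatty acid-binding protein of radial glia, had -0.82 and 0.10.

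Hox genes with their TALE partners, which set position along the body axis, had 19 members lower and 4 higher in both numbers among 39 tested, with a median of -0.33 (-0.43 and -0.35 within numbers 1 and 2). Over all tested genes 26.2% were lower and 26.2% higher in both. The homeobox cofactor gene pbx3b read 386 and 201 in Bdh2 morphants, against 903 and 831 in control morphants. Of its usual partners, meis2a had 629 and 602 in Bdh2 morphants and 1113 and 1082 in control morphants, and meis2b had differences of -0.64 and -1.30. Among the Hox genes proper, hoxb9a read 258 and 299 in Bdh2 morphants and 501 and 502 in control morphants. Its other tested probe set had smaller differences, -0.60 and -0.05. The gene hoxc11a had -1.07 and -0.63, and hoxa9b had -1.72 and -0.89. The brightest, hoxb3a, differed little in number 1, with -0.05 and -0.49.

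Pigment cell and purine synthesis genes were not one-sided, with 5 lower and 7 higher of 19 in both numbers, beside 26.2% each way over all tested genes. The members are therefore described singly. The neural crest factor genes foxd3 and sox10 were lower, foxd3 at 396 and 391 in Bdh2 morphants against 768 and 625 in control morphants, and sox10 at 281 and 422 in Bdh2 morphants against 491 and 780 in control morphants. The melanosome matrix gene pmelb had -0.55 in each number. Purine synthesis supplies both nucleotides and the crystals of iridophores, and 3 of its genes are described here. The gene ppat, the first enzyme of the pathway, read 841 and 1201 in Bdh2 morphants and 504 and 691 in control morphants. For gart the differences were 0.58 and 0.52, and for paics they were 0.25 and 0.56.

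Skeletal muscle genes were lower by moderate amounts in many members. Of 23 tested contractile protein genes, 17 were lower and 1 higher in both numbers, with a median of -0.44, and of 35 genes of the Z-disc, the calcium store and muscle energy, 26 were lower and 1 higher, with a median of -0.35. Over all tested genes 26.2% were lower and 26.2% higher in both. The muscle regulatory factor gene myog, which starts the fusion of myoblasts, read 145 and 285 in Bdh2 morphants, against 314 and 820 in control morphants. The myoglobin gene mb, which codes for the oxygen store of muscle, read 280 and 112 in Bdh2 morphants and 648 and 282 in control morphants. In both genes each morphant array was below its same-numbered control by more than 2-fold, but the groups nearly met, with replicates of a group about as far apart as the groups.

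The structural genes differed in how close their replicates lay. The Z-disc gene ldb3b read 1686 and 1964 in Bdh2 morphants, against 3455 and 3247 in control morphants, and mybphb, a myosin-binding protein gene, read 6211 and 5197 in Bdh2 morphants, against 10981 and 9156 in control morphants. Neither overlapped, and mybphb had -0.82 in each number. Both genes were picked for large differences, and 14.1% of all tested probe sets had both morphant arrays below both controls. The fast myosin heavy chain gene myhz1.3 had -1.55 and -0.58, the tropomyosin gene tpma -0.55 and -0.63, the troponin gene tnnt3b -0.40 and -1.05, and the Kelch-like gene klhl41b, which stabilises thin filaments, -0.81 and -0.75. The brightest gene of the Z-disc and energy list, pvalb2, the calcium buffer parvalbumin, differed little, at 27940 and 26426 in Bdh2 morphants and 31466 and 28231 in control morphants. The brightest contractile gene, actc1b, had opposite signs, -0.22 and 0.11, as did its other tested probe set. The muscle creatine kinase gene ckma had -0.17 and -0.48. The nebulin gene neb had opposite signs, 0.33 and -1.68, and the calcium pump gene atp2a1l was low mainly in the replicate 2 morphant array, at 776 and 65.7 in Bdh2 morphants against 1223 and 892 in control morphants.

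Beside these values stands a measure of RNA integrity that uses a muscle gene. The array's own control probes at the 3′ and 5′ ends of the muscle actin transcript gave a 3′ to 5′ ratio of 11.8 and 3.49 in Bdh2 morphants, against 4.28 and 2.60 in control morphants, and those of gapdh gave 2.82 and 1.71 in Bdh2 morphants, against 2.68 and 1.5 in control morphants. Both ratios were higher in the morphant array of each number, and their part in the differences was not tested. The muscle actin gene acta1a itself had differences of -1.29 and -0.36. Heart muscle genes mostly disagreed between the numbers, with 2 lower and 1 higher of 14 in both. The other 11 had opposite signs, beside 47.5% of all tested genes, and the median was 0.15 within number 1 and -0.51 within number 2.

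Genes of cartilage, bone and connective tissue were lower in 20 of 27 tested members in both numbers and higher in none, with a median of -0.49 (-0.33 and -0.50). Over all tested genes 26.2% were lower and 26.2% higher in both. The gene col10a1a, a collagen of bone-forming cells and maturing cartilage, read 55.2 and 42.5 in Bdh2 morphants, against 220 and 582 in control morphants, and was the lowest member by far (-1.73 and -3.35). The fibrillar collagen gene col5a2a read 861 and 891 in Bdh2 morphants, against 1656 and 1462 in control morphants. Bone and skin collagen genes were bright and smaller in difference: col1a1a had 10388 and 7094 in Bdh2 morphants and 15991 and 9730 in control morphants, and its partner chain gene col1a2 had -0.48 and -0.94. Of the cartilage genes, col9a3 had -0.48 and -0.54, col11a2 had -0.91 and -0.50, and the link protein gene hapln1a had -0.50 and -0.92 in its brightest probe set, with 1 of its 3 tested probe sets going the other way on average.

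Red blood cell genes, which include globins and erythroid factors, were lower in 12 of 19 tested members in both numbers and higher in 1, with a median of -0.35 (-0.43 and -0.22). Over all tested genes 26.2% were lower and 26.2% higher in both. The embryonic beta-globin gene hbbe2 read 9282 and 2929 in Bdh2 morphants, against 18927 and 5181 in control morphants. For alas2, the first enzyme of heme synthesis in red cells, the intensities were 2849 and 439 in Bdh2 morphants and 4982 and 690 in control morphants. In both genes the replicate 2 arrays of both groups were far below the replicate 1 arrays, and the gap between replicates was larger than the gap between groups.

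That gap ran through the list. Replicate 2 was below replicate 1 by a median of -1.51 in Bdh2 morphants and -1.43 in control morphants, so the differences between groups can be read only within a number, and the unpaired standard errors are wide (1.09 for alas2). Within numbers, cahz, the red cell carbonic anhydrase, had -0.59 and -0.80, the erythroid factor gene klf1 -0.43 and -0.59, the factor gene gata1a -0.47 and -0.35, and lmo2, a blood progenitor factor, -0.56 and -0.48. The brightest globin probe set, hbae3, was slightly higher, with 40785 and 29022 in Bdh2 morphants and 39125 and 26341 in control morphants, and after quantile normalisation it had -0.08. The alpha-globin gene hbaa1 had opposite signs, 0.46 and -1.92.

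Genes of heme synthesis and its mitochondrial supply were lower in 7 of 14 members in both numbers and higher in none, with a median of -0.26. Over all tested genes 26.2% were lower and 26.2% higher in both. Besides alas2 the lower members included fech, the enzyme that puts iron into heme, with -0.50 and -1.02. Members that other tissues use as well differed by less but repeated closely: uros, an enzyme of the middle of the pathway, had -0.35 and -0.34, and tmem14ca, a mitochondrial membrane gene of heme synthesis, -0.29 in each number. For clpxa, the mitochondrial unfoldase gene, the differences were -0.43 and -0.63, while its other tested probe set had opposite signs, 0.29 and -0.69. Iron transport, iron storage and ketone body genes had 4 lower and 4 higher of 17, or 23.5% each way, near the 26.2% of all tested genes. The iron exporter gene slc40a1, known as ferroportin, read 1043 and 926 in Bdh2 morphants, against 844 and 651 in control morphants, and acat1, a thiolase of ketone body use, had -0.83 and -0.20.

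**Figure D3:**
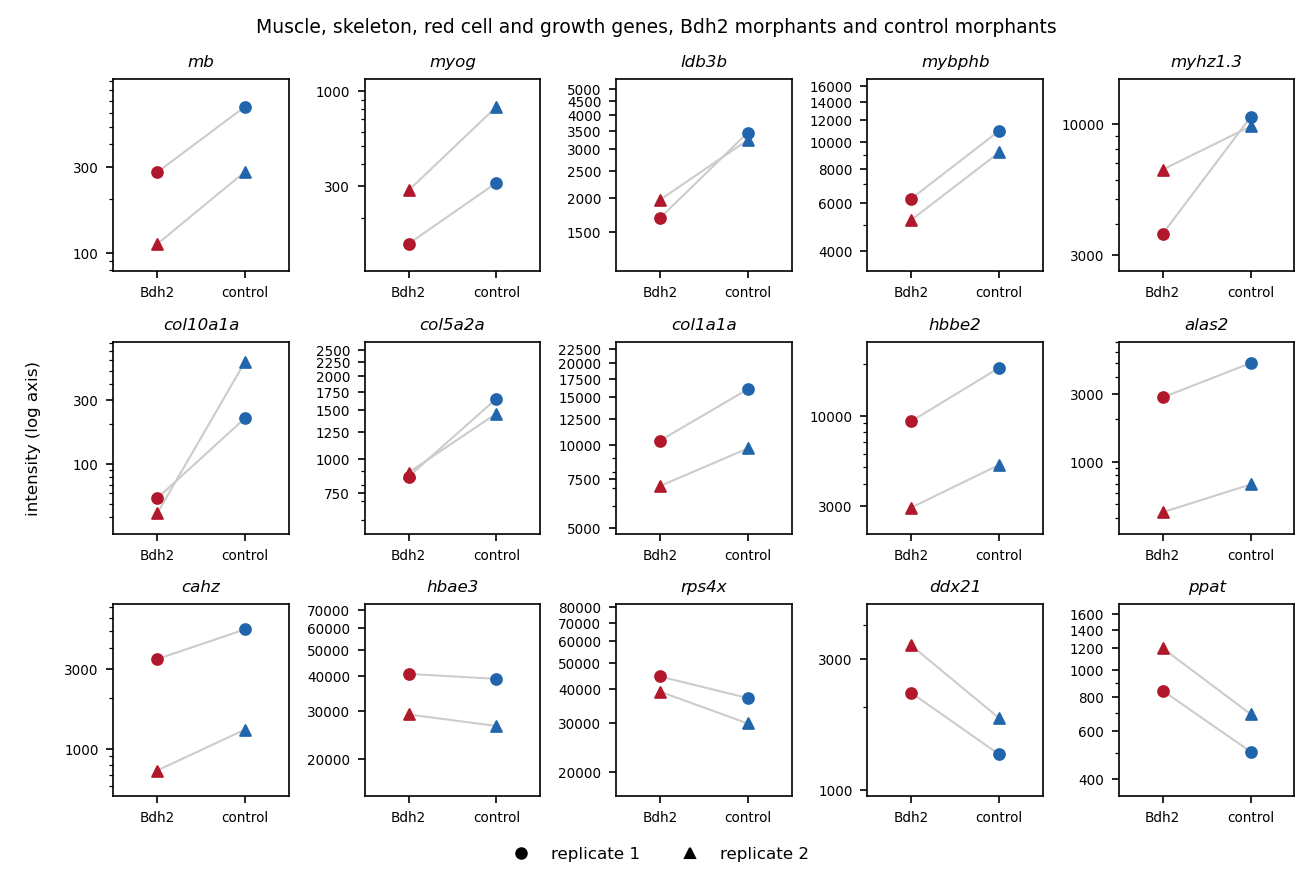
Intensity (log axis) of 15 genes of muscle, skeleton, red cells and growth in Bdh2 morphants (red, left) and control morphants (blue, right), with a line joining the arrays of the same replicate number (circle 1, triangle 2). In hbbe2, alas2 and cahz the vertical gap between circle and triangle exceeds the slope of either line, while in ldb3b, mybphb and col5a2a the replicates of a group lie close together.

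Heat shock and chaperone genes had 6 lower and 7 higher of 35 in both numbers. The other 22 had opposite signs, beside 47.5% of all tested genes. The heat shock gene hsp70.3 read 309 and 77.9 in Bdh2 morphants, against 1404 and 1306 in control morphants, without overlap (-2.13 and -3.82). Of all tested probe sets, 14.1% had both morphant arrays below both controls. For fkbp5, a co-chaperone gene that glucocorticoids induce, the intensities were 451 and 55.0 in Bdh2 morphants and 1205 and 172 in control morphants, at -1.39 and -1.41. The gene hsp90aa1.2 had -0.94 and -0.90, and in this gene and in fkbp5 the replicate 1 morphant array lay above the replicate 2 control array. The hsp70.3 probe set is of a type that can also bind close relatives of its gene, so the reading may include other hsp70 copies. The mitochondrial chaperone gene hspe1 was among the higher ones (0.41 and 0.43).

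Genes of endoplasmic reticulum and amino acid stress were lower in 17 of 33 members and higher in 3, with a median of -0.26. Over all tested genes 26.2% were lower and 26.2% higher in both numbers. The amino acid transporter subunit gene slc3a2b read 772 and 380 in Bdh2 morphants, against 1523 and 897 in control morphants. For chac1, a glutathione-degrading target of the stress factor Atf4, the replicates were tight, at 1516 and 1574 in Bdh2 morphants and 2524 and 2555 in control morphants. The chaperone gene calr had -0.71 and -0.67, the stress factor gene atf3 -0.66 and -0.89, and aldh18a1, of proline synthesis, -2.64 and -0.80. The other tested probe set of calr had opposite signs, 0.02 and -0.52.

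Hypoxia and glycolysis genes were lower in 26 of 42 members and higher in 2, with a median of -0.29. Over all tested genes 26.2% were lower and 26.2% higher in both numbers. The hypoxia-induced gene ndrg1b read 61.8 and 42.7 in Bdh2 morphants, against 210 and 344 in control morphants. The lactate dehydrogenase gene ldha read 371 and 310 in Bdh2 morphants, against 908 and 555 in control morphants, and p4ha1b, a collagen-modifying enzyme that hypoxia induces, had -0.87 and -1.45. In these 3 genes, picked for large differences, the groups did not overlap, where 14.1% of all tested probe sets had both morphant arrays below both controls. The glycolysis genes pfkma (-0.67 and -0.62) and gpib (-0.61 and -0.99) were lower by less. Yet egln3, the oxygen sensor gene that hypoxia itself induces, had 0.88 and -2.81, and pfkfb3 had 0.53 and -2.35, with the control replicate 2 array the highest of the 4 in both.

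Mitochondrial genes are given here by function, beside 26.2% lower and 26.2% higher in both numbers over all tested genes. Carriers and creatine kinases were lower in 14 of 27 members and higher in 3, and the ADP/ATP carrier gene slc25a4, the main form in mammalian muscle, read 2017 and 2462 in Bdh2 morphants, against 5545 and 4764 in control morphants, without overlap (mean -1.20, SE 0.27). Of all tested probe sets, 14.1% had both morphant arrays below both controls. Respiratory chain subunits were balanced, with 16 lower and 15 higher of 70 and a median of 0.02, although ndufa4b, a subunit gene, had -1.09 and -0.91. Of the fatty acid oxidation genes, 14 of 33 were lower and 5 higher. Among them cpt1ab, the entry step of fatty acids into the mitochondrion, had -0.63 and -0.75, hadhb -0.49 and -0.65, and ech1 -0.60 and -0.58. The thioesterase gene acot14 went the other way, with 404 and 441 in Bdh2 morphants and 185 and 189 in control morphants, and was 1 of the 4 genes with a symbol at least 2-fold higher in both numbers.

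Endocrine genes were lower in 12 of 17 members and higher in 1, beside 26.2% each way over all tested genes, with a median of -0.38. Besides neurod1 and isl1a, they included cpe, which trims prohormones and had -0.60 and -1.11, and the granin-related genes scg3, with -0.56 and -0.93, and scg5, with -0.70 and -0.64. Epidermal genes were not one-sided, with 8 lower and 14 higher of 41, and the keratin gene krt15 was the exception in size, at 258 and 190 in Bdh2 morphants and 491 and 447 in control morphants. The other keratin gene with a large difference was krt91 (-0.58 and -1.30). The endothelial list had 4 lower, 2 higher and 10 of opposite sign among 16, with a median of 0.35 within number 1 and -0.49 within number 2. Its aquaporin gene aqp8a.1 had -1.25 and -1.69.

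The lists of cell growth had the highest shares of members higher in both numbers, beside 26.2% over all tested genes. Genes of the nucleolus and ribosome assembly were higher in 48 of 75 members and lower in 1, with a median of 0.43, at 0.74 within number 1 and 0.13 within number 2. The RNA helicase gene ddx21, which works in the nucleolus, read 2260 and 3364 in Bdh2 morphants, against 1348 and 1828 in control morphants. A second helicase gene, ddx28, had 239 and 203 in Bdh2 morphants and 120 and 79.8 in control morphants, and rrp1, of ribosomal RNA processing, had 0.99 and 0.54. These 3 genes, picked for large differences, did not overlap between groups, where 10.4% of all tested probe sets had both morphant arrays above both controls. The member that went the other way was npm1b, a nucleophosmin gene, at -1.28 and -2.39.

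Cytosolic ribosomal protein genes were higher in 47 of 73 members and lower in none, but by little, with a median of 0.18 that was 0.03 within number 1 and 0.32 within number 2. After quantile normalisation, which ties the brightest values of the arrays together, their median was 0.03. Among them rps4x read 44516 and 39197 in Bdh2 morphants, against 37124 and 29991 in control morphants, and rpl19 had 0.25 and 0.35. DNA replication and cell cycle genes were higher in 32 of 71 members and lower in 6, with a median of 0.20 (0.32 and 0.04). The cyclin gene ccne1, which starts DNA replication, read 184 and 194 in Bdh2 morphants, against 119 and 67.7 in control morphants, the histone gene h2ax had 0.46 and 0.49, and the clamp loader gene rfc3 0.55 and 0.46. The medians of the nucleolus, replication, ribosomal protein, translation factor and proteasome lists were above 0 under both other scalings of the arrays as well. Those scalings also raised the median over all tested genes, from 0.02 to 0.10 with centring and to 0.05 with quantile normalisation. A median above 0 there is therefore not above that of all genes by itself. The ribosomal protein median of 0.03 after quantile normalisation was below it.

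Translation factors were higher in 22 of 53 members and lower in 7, with eif1axa at 0.56 and 0.44, while eef2l2, an elongation factor gene, was at 300 and 246 in Bdh2 morphants against 574 and 545 in control morphants. Splicing genes had 25 higher and 17 lower of 70, beside 26.2% each way over all tested genes. The core spliceosome gene snrpd3l had 0.52 in each number. Outside the lists, rangap1b, of nuclear transport, read 843 and 814 in Bdh2 morphants, against 467 and 452 in control morphants, with close replicates in both groups.

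**Figure D4:**
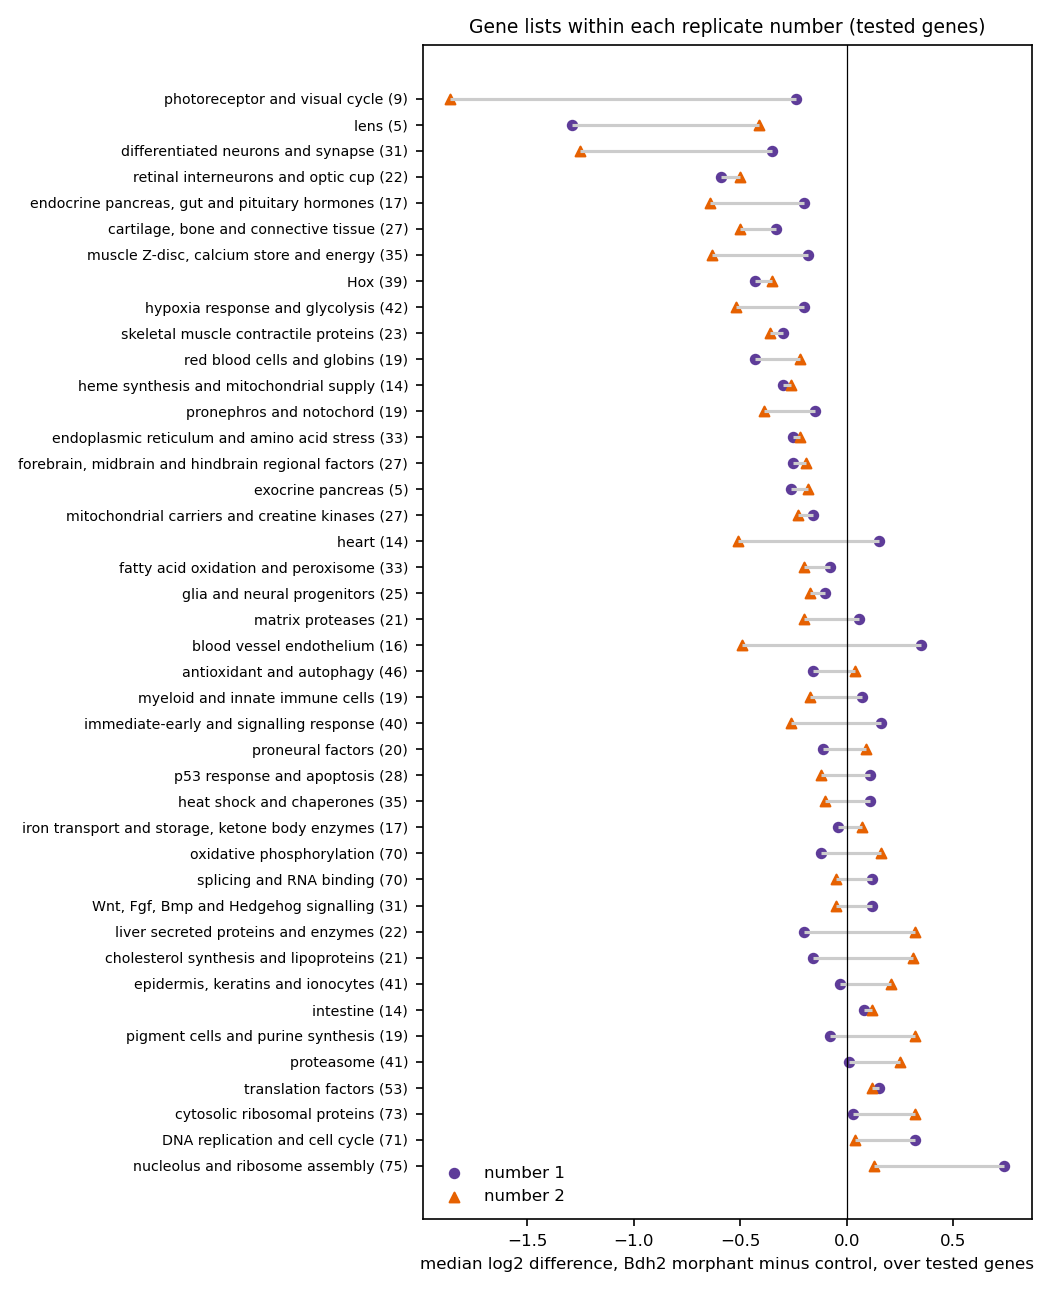
Median log2 difference, Bdh2 morphant minus control, of the tested members of each of 42 gene lists within number 1 (circles) and within number 2 (triangles), with the number of tested genes in brackets. Medians were below 0 in both numbers for 19 lists, above 0 in both for 6 and of opposite sign for 17, and the gap between circle and triangle is widest for photoreceptor genes, with -0.24 within number 1 and -1.86 within number 2.

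Several large differences belonged to genes outside the lists described so far. The gene thumpd3, an RNA-modifying enzyme gene, read 44.5 and 4.22 in Bdh2 morphants, against 305 and 370 in control morphants. The chemokine gene ccl25b read 215 and 75.6 in Bdh2 morphants, against 1023 and 299 in control morphants, and slc13a2, a carboxylate transporter gene of the intestine list, had -1.57 and -1.61. The uncharacterised gene si:ch211-255g12.6 read 74.3 and 33.1 in Bdh2 morphants, against 649 and 505 in control morphants. The probe sets zgc:136930 and wu:fa03e10, named by clone only, were low above all in number 2, with -1.56 and -3.41 for the first and -1.55 and -3.68 for the other. The Ras-related gene rasd1 was higher, with 0.88 and 0.77. Also on the higher side were zp3.1, of the egg envelope, whose probe set can also bind related transcripts, at 231 and 510 in Bdh2 morphants against 91.2 and 239 in control morphants, and gpa33a, a cell surface antigen gene, at 2047 and 1184 in Bdh2 morphants against 1053 and 547 in control morphants. Of the signalling genes, id1, a target of Bmp signalling, had 0.40 and 0.70, lef1, a factor of Wnt signalling, had -0.66 and -0.83, and fzd8a, a Wnt receptor gene, had 0.59 and 1.06.

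For some genes the 2 numbers disagreed by more than the groups differed. The p53 pathway is often watched in morphants because some morpholinos activate it, and 15 of its 28 tested members had opposite signs, 9 were lower and 4 higher in both numbers. Over all tested genes 47.5% had opposite signs, so the share in this list is near that of all genes. The target gene phlda3 read 512 and 225 in Bdh2 morphants, against 118 and 394 in control morphants (1.98 and -0.77). The death factor gene bbc3 had 152 and 65.9 in Bdh2 morphants and 73.2 and 258 in control morphants, and ccng1 had 16115 and 8452 in Bdh2 morphants and 9609 and 11688 in control morphants. All 3 were thus higher in number 1 and lower in number 2. Members with 1 sign were btg2 (0.38 and 0.79) and gadd45ga (-0.78 and -0.64), which point opposite ways.

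Liver genes had opposite signs in 16 of 22 members, and cholesterol and lipoprotein genes in 13 of 21, beside the 47.5% of all tested genes. Their medians were -0.20 and -0.16 within number 1, and 0.32 and 0.31 within number 2. The apolipoprotein gene apom read 851 and 5102 in Bdh2 morphants, against 2396 and 2043 in control morphants, and apoa4b.2 read 4971 and 19052 in Bdh2 morphants, against 8503 and 8396 in control morphants. The gluconeogenesis gene fbp1b read 966 and 3646 in Bdh2 morphants, against 1003 and 1360 in control morphants. The control replicates lay close together in these genes, and the 2 morphant arrays lay far apart. An apolipoprotein with 1 sign was apoba, of lipoprotein particles, at 0.51 and 0.50. The detoxification gene cyp1a, at 835 and 403 in Bdh2 morphants against 673 and 3284 in control morphants, was set apart by the control replicate 2 array alone, and the immediate-early gene fosab, at 242 and 38.9 in Bdh2 morphants against 206 and 261 in control morphants, by the morphant replicate 2 array.

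**Figure D5:**
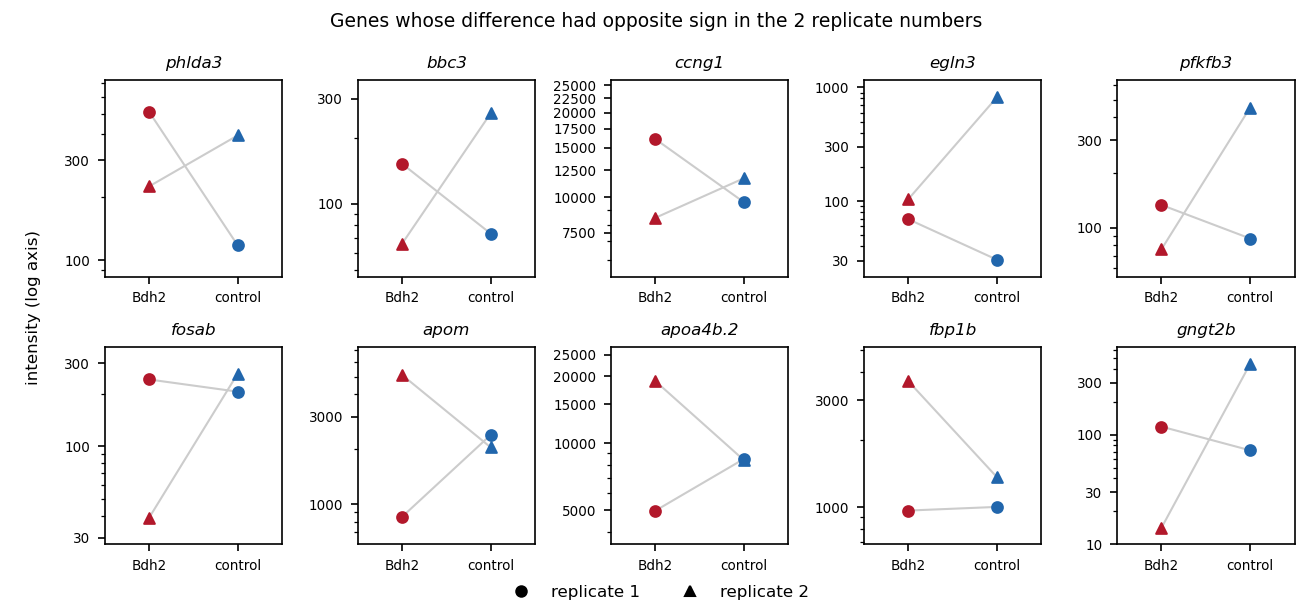
Intensity (log axis) of 10 genes whose difference had opposite sign in the 2 replicate numbers, in Bdh2 morphants (left) and control morphants (right), with a line joining the arrays of the same number (circle 1, triangle 2). In apom and apoa4b.2 the control arrays nearly coincide and the morphant arrays lie far apart, with 4971 and 19052 for apoa4b.2.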

How the data were processed

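RNA of whole embryos was hybridised to 1 Affymetrix zebrafish array per sample. The deposited values are linear probe set intensities made with Affymetrix Expression Console, per the submitters' processing notes. For its version and summarisation algorithm, no value is given in the sources used here. The 2%-trimmed mean of every array was close to 500 and sorted values differed between arrays, so the arrays had been scaled but not quantile normalised. Intensities were converted to log2(intensity + 16). Of 15617 probe sets, 115 Affymetrix controls were left out. The 9301 with a 4-array mean above the 40th percentile (an intensity of 94.5) were tested, for 6336 genes, and 6201 were not. Symbols came from the platform annotation, with 1 symbol for 10802 probe sets, several for 135 and none for 4680, and 10718 identifiers matched the reference gene table.

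Groups were compared with limma 3.58.1 in R 4.3.3, with 1 mean per group, an intensity-dependent prior, two-sided p-values and Benjamini-Hochberg adjustment over 9301 probe sets. Differences within a replicate number are descriptions with no test. Gene lists were described through the brightest probe set of each gene where at least 4 members were tested, which left 42 of 43 lists. Named genes followed a rule: bdh2, the 15 furthest below 0 and the 15 furthest above 0 by differences with 1 sign in both numbers, and of each list up to 6 members with the largest such difference in size, the brightest member and up to 2 with opposite signs, of which the text describes a part. An item that the rule names is not reported here. The comparison, the lists and the rule were chosen with earlier results of these data known. The pipeline was tested on simulated data that held no shift between replicate numbers, unlike these arrays. Alternatives covered the replicate number as a term, the added constant, the filter, the scaling, the moderation, all 5 arrays, the probe set per gene and each array left out.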

Additional observations from a re-analysis of the deposited data

Results flagged for a closer look

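Control probes of the array gave a signal outside the main measurement that was above the same-numbered control array in both numbers. The 3′ to 5′ ratio of the muscle actin control transcript was 11.8 and 3.49 in Bdh2 morphant replicates 1 and 2, against 4.28 and 2.60 in control replicates 1 and 2. That of gapdh was 2.82 and 1.71 in Bdh2 morphants, against 2.68 and 1.5 in control morphants. The part of these ratios in the lower muscle gene values was not tested.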

How the results depend on the processing

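The labels do not say what a replicate number stands for, and with 2 pairs the data do not settle it. A control probe set of the array split by number, at 139 and 34877 in Bdh2 morphant replicates 1 and 2 and 129 and 25644 in control replicates 1 and 2. Replicate 1 minus replicate 2 correlated across probe sets between Bdh2 morphants and control morphants (r = 0.543), and arrays were more alike within a number (r = 0.964 and 0.952) than within the Bdh2 morphants (0.913) or the control morphants (0.932). With a replicate block, 1 probe set had a limma adjusted p under 0.05, that of crx (0.0237). Leaving out 1 array gave 0 to 5 such probe sets, with 5 without control replicate 2, and the other alternatives gave 0. Without a filter, 4323 probe sets were lower and 3736 higher in both numbers, and with the filter at the 60th percentile 1647 were lower. At least 2-fold lower in both numbers were 47 with the constant at 64, 132 without a filter and 44 with the 60th percentile, and at least 2-fold higher were 1, 25 and 3. The filter also sets how many probe sets are tested, 15502 without it and 6201 at the 60th percentile, in place of 9301. What else moved these counts was not tested. Centring the arrays put the medians of 10 lists above 0 in both numbers, in place of 6. With the 60th percentile the photoreceptor and exocrine pancreas lists had too few tested members for a value.

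Leaving out 1 array unbalances the numbers, so its values mix group and number. Over the 4 such fits, list medians that had the same sign in both numbers and changed it ran from -1.64 to 0.03 for lens, -0.22 to 0.07 for glia, -1.01 to 0.49 for red blood cells, -0.39 to 0.11 for heme synthesis, -0.28 to 0.01 for exocrine pancreas, -0.13 to 0.04 for intestine and -0.16 to 0.40 for proteasome. Others that did not cross 0 moved by more than 1.5 times, with ranges of -1.64 to -0.47 for photoreceptor genes, -0.78 to -0.16 for retinal interneurons, -1.31 to -0.38 for neurons, -0.45 to -0.16 for regional factors, -0.55 to -0.14 for Hox, -0.72 to -0.16 for cartilage and bone, -0.74 to -0.12 for endocrine genes, -0.58 to -0.30 for the muscle Z-disc, -0.54 to -0.30 for hypoxia, 0.09 to 0.68 for nucleolus, 0.06 to 0.26 for DNA replication, 0.07 to 0.24 for ribosomal proteins, 0.06 to 0.09 for translation factors and -0.38 to 0 for endoplasmic reticulum stress. The fatty acid oxidation list did so too, at -0.15 to -0.05. Red cell genes that changed sign ran from -1.86 to 0.01 (hbbe2), -2.13 to 0.69 (alas2), -1.78 to 0.40 (cahz), -1.99 to 0.97 (klf1), -1.48 to 0.66 (gata1a), -0.19 to 0.39 (hbae3), -2.01 to 0.55 (hbaa1) and -1.79 to 0.28 (fech). Lens genes that did so ran from -2.61 to 0.12 (bfsp2), -1.17 to 0.03 (cryba4) and -1.50 to 1.14 (crybb1). Other genes ran from -0.50 to 0.89 (bdh2), -1.97 to 0.06 (map1aa), -3.05 to 1.12 (egln3), -2 to 0.18 (pfkfb3), -0.33 to 0.60 (ccng1), -0.20 to 1.42 (phlda3), -1.22 to 0.40 (bbc3), -1.36 to 1.2 (apom), -0.76 to 1.17 (apoa4b.2), -0.27 to 1.63 (fbp1b), -2.17 to 0.06 (fosab) and -0.07 to 1.72 (fzd8a). The cause of these changes was not tested. Outside these fits, 1313 values of the 151 genes recomputed kept their sign and side of the threshold, crx passed it with the replicate block, and 1 value changed sign, hbae3 at -0.08 after quantile normalisation.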

Other observations

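The remaining lists are given by their counts, beside shares of 26.2% lower and 26.2% higher in both numbers over all tested genes. Pronephros and notochord genes were lower in 10 of 19 members in both numbers and higher in 1, immediate-early and signalling response genes lower in 13 and higher in 10 of 40, and antioxidant and autophagy genes lower in 14 and higher in 7 of 46. Proteasome genes were higher in 14 and lower in 1 of 41. Genes of Wnt, Fgf, Bmp and Hedgehog signalling were higher in 11 and lower in 6 of 31, and intestinal genes higher in 5 and lower in 3 of 14. Myeloid and innate immune genes were lower in 3 and higher in 2 of 19, matrix protease genes lower in 6 and higher in 2 of 21, and exocrine pancreas genes lower in 3 and higher in 1 of 5.

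Further targets of p53, chosen after their values were seen, also had opposite signs, and since they were picked for that they add no support to a pattern in the list. The p53 inhibitor gene mdm2 read 727 and 189 in Bdh2 morphants, against 351 and 669 in control morphants (1.02 and -1.74). The ribosomal protein-like gene rps27l read 5437 and 1855 in Bdh2 morphants, against 2096 and 4081 in control morphants (1.37 and -1.13), and the stress gene sesn3 had 0.90 and -0.52. In mdm2 and rps27l the highest array was Bdh2 morphant replicate 1 and the lowest was Bdh2 morphant replicate 2, with both controls between them.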
